A study of Mus musculus with 9 samples.

Results

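The genes described here encode the machinery of antigen receptor gene recombination and markers of immature thymocytes. They were the rows of the deposited expression table whose symbol was Rag1, Rag2, Dntt, Ptcra, Arpp21, Cd24a, Cd69 or Sox4. Of these 8 genes, 7 were found among the 41978 genes of the table, and Ptcra, the invariant chain of the pre-T cell receptor, is not analysed here. Of the 7, the 6 other than Rag2 reached a TPM of 1 in 3 samples or more and were tested, within a set of 30693 genes. Rag2 reached a TPM of 1 in 1 sample, GFPhi replicate 1, and its values are given without a fitted test.

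The samples were semi-mature CD4 single-positive (SP4) thymocytes from mice of the genotype Nur77-eGFP BAC Tg. In these mice, a bacterial artificial chromosome transgene makes green fluorescent protein as a reporter of the transcription of Nr4a1 (Nur77). Nr4a1 is a gene that T cell receptor (TCR) signaling switches on. All 3 groups carry the same transgene and differ in reporter level. Live thymocytes that were CD25-, CD69+, CD24+, CD4+ and CD8- were sorted by low, medium or high GFP (GFPlo, GFPmed and GFPhi), with 10000 cells and 3 samples per group that the labels call biological replicates. The labels give neither age nor sex of the mice and name no treatment. CD24 and CD69, the proteins made from Cd24a and Cd69, were themselves used in the gate, in the same way for every group. Nr4a1 transcript, the check of the sort, had group means of 217, 374 and 840 TPM from GFPlo to GFPhi.

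The cells had passed the stages at which most of these genes are known to act. RAG1 and RAG2 together cut DNA at recombination signal sequences, and terminal deoxynucleotidyl transferase, encoded by Dntt, adds untemplated nucleotides to the cut ends before they are joined. In the thymus this takes place first in double-negative (DN) cells, for TCRβ, and again in double-positive (DP) cells, for TCRα. Positive selection ends Rag transcription, and the SP cells that follow lower CD24 and CD69 as they mature. CD69 is induced by TCR signaling and holds thymocytes in the thymus by removing the egress receptor S1PR1 from the cell surface. SOX4 is an HMG-box transcription factor of early lymphoid cells, and Arpp21 encodes an RNA-binding phosphoprotein known from brain that is also transcribed in immature thymocytes.

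Of the 6 genes tested, 1 passed the thresholds between GFPhi and GFPlo. Dntt was 3.08-fold lower in GFPhi. Cd69 was 1.74-fold lower, with an adjusted p under the threshold but a fold change short of the limit. Sox4 was 1.52-fold higher on average, in 3 of 3 samples, and missed both the limit on the fold change and the threshold on p. Rag1, Arpp21 and Cd24a had overlapping samples in all 3 groups. A gene was called where its log2 fold change was 1 or more in either direction and its p in limma, adjusted by the Benjamini-Hochberg method over all genes, was 0.05 or less; the model was fitted on log2(TPM + 1) of all 9 samples. By these limits 1.66% of all genes tested were called between GFPhi and GFPlo, with 1.26% called higher and 0.404% called lower.

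The stretches of 250 bases before the RefSeq start sites of Dntt, Rag1 and Sox4 are shown because these genes took different courses over the reporter levels: Dntt was lower in GFPhi, Sox4 was on average higher, and Rag1, the partner of Dntt in recombination, showed no detectable difference. Each reads 5′ to 3′ on the strand of its gene in the GRCm38.p6 assembly, at chr19:41029025-41029274 on the plus strand for Dntt, chr2:101649533-101649782 on the minus strand for Rag1 and chr13:28953700-28953949 on the minus strand for Sox4. Capitals mark E-boxes (CANNTG), the letters that E proteins are known to bind.
Dntt: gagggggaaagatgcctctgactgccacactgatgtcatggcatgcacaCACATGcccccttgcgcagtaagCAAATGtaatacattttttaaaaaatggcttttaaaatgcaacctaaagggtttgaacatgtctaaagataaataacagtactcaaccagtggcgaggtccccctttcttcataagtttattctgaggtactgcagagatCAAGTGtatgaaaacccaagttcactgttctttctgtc
Rag1: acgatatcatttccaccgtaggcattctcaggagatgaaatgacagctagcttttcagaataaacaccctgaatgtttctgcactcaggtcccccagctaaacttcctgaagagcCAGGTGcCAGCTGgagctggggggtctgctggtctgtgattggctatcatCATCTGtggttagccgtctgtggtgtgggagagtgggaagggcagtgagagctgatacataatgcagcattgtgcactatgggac
Sox4: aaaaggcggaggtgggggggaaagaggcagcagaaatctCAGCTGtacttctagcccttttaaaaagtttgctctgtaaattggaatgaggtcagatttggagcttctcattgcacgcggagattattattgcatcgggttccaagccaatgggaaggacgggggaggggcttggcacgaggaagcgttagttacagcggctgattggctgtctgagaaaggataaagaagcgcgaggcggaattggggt
The Dntt and Rag1 stretches each held 3 E-boxes and the Sox4 stretch held 1. Searched on both strands, E-box letters occurred in 66.2% of the 32851 mouse promoters of the same length, so their presence sets none of the 3 apart. The NR4A monomer element AAAGGTCA, the AP-1 element TGANTCA and the EGR element GCGTGGGCG had no match in any of the 3 stretches, and they occurred in 1.336%, 6.75% and 0.536% of all promoters. The NFAT core GGAAA had 1 match in each of the 3 and occurred in 55.6% of all promoters. The Ikaros core TGGGAA had 1 match before Rag1, 1 before Sox4 and none before Dntt, against 21.6% of all promoters that held it. The RUNX letters TGTGGT had 2 matches before Rag1, with none before Dntt or Sox4, and occurred in 14.0% of all promoters. Promoter rows were found for 6 of the 8 genes, that is, for all but Cd24a and Cd69.

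Dntt, at chr19:41029275-41059525 on the plus strand, stood at 12.2, 14.6 and 13.9 TPM in the 3 GFPlo samples. It stood at 9.54, 10.1 and 8.95 TPM in the GFPmed samples and at 4.49, 3.70 and 5.03 TPM in the GFPhi samples. Every GFPmed sample lay below every GFPlo sample and above every GFPhi sample, so the 3 groups did not overlap. Group means were 13.6 ± 1.26, 9.53 ± 0.578 and 4.41 ± 0.670 TPM (SD, n = 3). These values rest on 398 to 596 reads in GFPlo, 293 to 599 in GFPmed and 170 to 236 in GFPhi. GFPhi differed from GFPlo by a log2 fold change of -1.43 (SE 0.16, 95% interval -1.80 to -1.07, limma adjusted p = 0.0026). Among all genes tested, 9.92% had every GFPhi sample below every GFPlo sample.

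The fall of Dntt was larger over the upper step of reporter level than over the lower one, but the 2 steps were not shown to differ. From GFPlo to GFPmed the log2 fold change was -0.47 (SE 0.16, limma adjusted p = 0.88), and none of the 6 genes was called between these groups, where 0.0586% of all genes were. Genes with every GFPmed sample below every GFPlo sample made up 4.70% of those tested. From GFPmed to GFPhi the log2 fold change of Dntt was -0.97 (SE 0.16, limma adjusted p = 0.028), just short of the limit of 1. That limit was applied to log2(TPM + 1), while the mean TPM without the added constant differed 2.16-fold. None of the 6 genes was called between GFPhi and GFPmed, against 0.691% of all genes and 0.150% that were called lower. The difference between the steps was -0.50 on the log2 scale (limma adjusted p = 1.00), and the same test of uneven steps called none of the 6 genes and 0.0195% of all genes. With limma-voom on whole reads, which adds no constant of 1 TPM to the values, Dntt passed both limits between GFPhi and GFPmed (log2 fold change -1.10, adjusted p = 0.00022, over a range of 0.00022 to 0.237 for the 21 alternatives).

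The call of Dntt between GFPhi and GFPlo held with each sample left out in turn, at log2 fold changes of -1.52 to -1.34. It was lost when the 3 samples numbered replicate 1 were left out together, at a log2 fold change of -1.52 and a limma adjusted p of 0.073 with 2 samples per group. Of the markers of DP thymocytes, the 2 CD8 chains were lower in GFPhi, as Dntt was. Between GFPmed and GFPlo, the log2 fold change was 0.006 for Cd8a, -0.22 for Cd8b1 and -0.47 for Dntt, none of them called. The summed TPM of Cd8a, Cd8b1, Aqp11 and Endou ran from 39.2 to 42.7 in GFPlo, 36.2 to 41.7 in GFPmed and 19.7 to 26.0 in GFPhi, with 1 of the 4, Cd8a, called lower and none at 0 in all samples. Cd8b1 differed by -0.79 on the log2 scale, Aqp11 by -0.34 and Endou by 0.13 (limma adjusted p = 0.0065, 0.73 and 0.93). In bulk samples such as these, fewer cells with a transcript and less of it per cell cannot be told apart, and the part of residual DP cells in the Dntt difference was not tested.

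**Figure D1:**
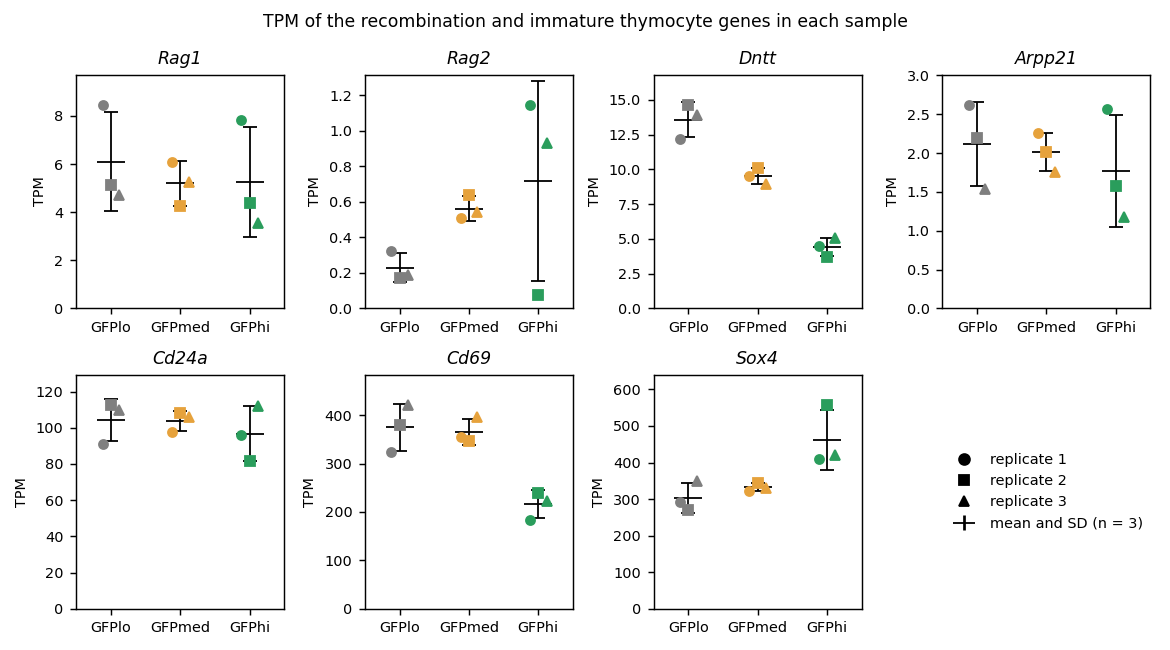
TPM (vertical axes, each from 0) of the 7 genes in each GFPlo, GFPmed and GFPhi sample. Symbols mark the replicate number, and black bars the mean and SD of 3 samples. Dntt steps down without overlap from 12.2 to 14.6 TPM in GFPlo to 3.70 to 5.03 TPM in GFPhi. The Cd69 samples of GFPhi lie below the others, and the Sox4 samples of GFPhi lie above the others.

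Cd69, at chr6:129267325-129275436 on the minus strand, stood at 324, 380 and 420 TPM in GFPlo and at 354, 346 and 396 TPM in GFPmed. In GFPhi it stood at 184, 240 and 223 TPM. GFPlo and GFPmed overlapped throughout, and all 3 GFPhi samples lay below the other 6. The share of tested genes with every GFPhi sample below every GFPmed sample was 9.41%. The means were 375 ± 48.5, 366 ± 26.8 and 216 ± 28.7 TPM (SD, n = 3), with 2270 to 5399 reads behind each value. Fitted differences on the log2 scale were -0.79 for GFPhi against GFPlo (SE 0.13, limma adjusted p = 0.014) and -0.76 for GFPhi against GFPmed (SE 0.13, limma adjusted p = 0.032). With no limit on the fold change, Cd69 and Dntt passed in both comparisons, where 3.89% and 1.51% of all genes passed. Between GFPmed and GFPlo the log2 fold change of Cd69 was -0.03, with a 95% interval of -0.32 to 0.27. The transcript of a protein that TCR signaling is known to induce was thus lower in the group with the highest Nr4a1, among cells that had all been sorted as CD69+.

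Cd69 and Dntt differed in where the change lay. Of the whole log2 difference between GFPlo and GFPhi, a share of 0.0369 had been reached in GFPmed for Cd69 and a share of 0.326 for Dntt. The 124 genes called lower in GFPhi had a median share of 0.278, with quartiles of 0.187 and 0.379. The test of uneven steps gave Cd69 a difference of -0.74 on the log2 scale, with an unadjusted p of 0.0107 and a limma adjusted p of 0.82 over all genes, so a larger upper step was not shown for Cd69 at this depth of replication. The adjusted p of Cd69 between GFPhi and GFPlo ranged from 1.8e-05 to 0.334 over 21 alternatives, and the highest came from median-of-ratios scaling. Its log2 fold change ran from -0.90 to -0.68 over the same alternatives.

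Sox4, a gene of 1 exon at chr13:28948919-28953713 on the minus strand, went the other way. GFPlo samples held 293, 270 and 350 TPM, GFPmed samples 322, 343 and 331 TPM, and GFPhi samples 408, 556 and 421 TPM. GFPlo and GFPmed overlapped, and each GFPhi sample lay above the other 6, as was so of 8.26% of genes tested for GFPhi over GFPlo and of 7.11% for GFPhi over GFPmed. The means were 304 ± 41.3, 332 ± 10.8 and 462 ± 82.1 TPM (SD, n = 3). Against GFPlo, GFPhi had a log2 fold change of 0.60 (SE 0.14, 95% interval 0.28 to 0.91, limma adjusted p = 0.059), and against GFPmed it had 0.46 (SE 0.14, limma adjusted p = 0.21). The adjusted p between GFPhi and GFPlo ranged from 0.00039 to 0.346 over 21 alternatives. In GENCODE release M21, Sox4 shares 2616 of its 4795 exonic bases with Gm26735, a noncoding gene on the opposite strand. Whether counting used strand is not given in the sources used here, so reads of the 2 genes cannot be told apart.

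**Figure D2:**
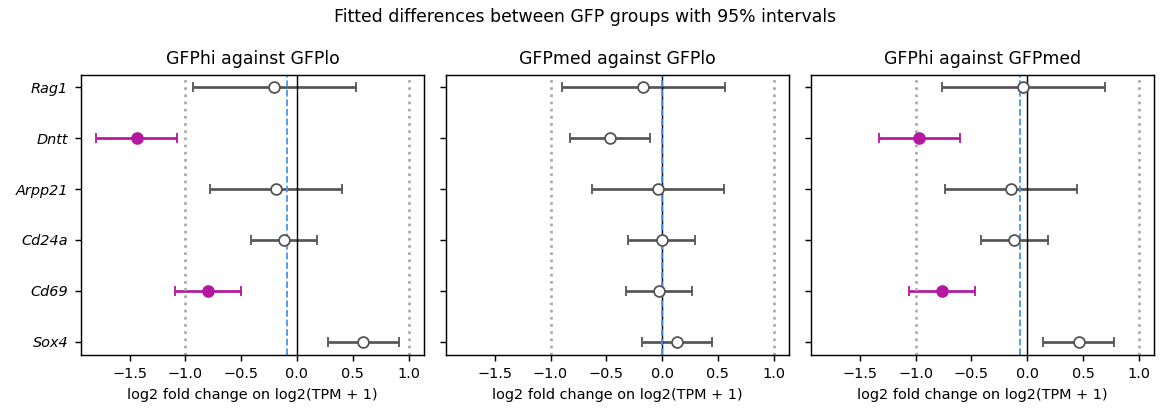
Log2 fold changes on log2(TPM + 1) (horizontal axes) of the 6 tested genes, with 95% intervals, for the 3 pairs of groups; filled points have a limma adjusted p of at most 0.05, dotted lines mark the limits of the fold change and dashed lines the median of all genes tested (-0.0870 for GFPhi against GFPlo). Dntt, at -1.43, is the sole point past a dotted line, and only Dntt and Cd69 have filled points.

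Rag1, at chr2:101638282-101649501 on the minus strand, was low throughout and showed no detectable difference. It stood at 8.45, 5.14 and 4.70 TPM in GFPlo, at 6.10, 4.25 and 5.24 TPM in GFPmed and at 7.84, 4.36 and 3.56 TPM in GFPhi. In GFPlo, GFPmed and GFPhi alike, replicate 1 was the highest sample, and the groups overlapped. GFPhi differed from GFPlo by -0.20 on the log2 scale, and the 95% interval of -0.94 to 0.53 leaves room for changes of either sign (limma adjusted p = 0.87). Without GFPlo replicate 1, the log2 fold change was 0.02.

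Rag2, which faces Rag1 from the opposite strand at chr2:101624718-101632529, was counted in 2 to 3 reads per GFPlo sample and 5 to 9 reads per GFPmed sample. The GFPhi samples held 17, 1 and 11 reads. In TPM, GFPlo ran from 0.174 to 0.325 and GFPmed from 0.507 to 0.639 without overlap, whereas GFPhi ran from 0.0771 to 1.14 and covered both. For comparison, 5.55% of the genes tested, which do not include Rag2, had every GFPmed sample above every GFPlo sample. In the annotation, the gene B230118H07Rik overlaps 208 exonic bases of Rag2 on the opposite strand and 80 exonic bases of Rag1 on the same strand, and reads from these shared bases cannot be told apart here.

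To place such low levels, read density over exons was compared with that of 1260 olfactory and vomeronasal receptor genes, a family that thymocytes are not known to use. Together the receptor genes held 2057 to 4427 of every 1000000 reads, with the highest value in replicate 1 of each group (4427 in GFPlo, 3350 in GFPmed and 4376 in GFPhi). Rag1 had 2.09 to 3.04 times the density of the receptor genes pooled and exceeded 85.0% to 91.7% of them taken singly. Arpp21 had 1.37 to 2.23 times their density and Rag2 0.0653 to 0.663 times. Rag2 was thus below the pooled density of genes that should be silent in every sample, and it exceeded 18.5% to 54.0% of them taken singly. The Rag2 reads are not read as expression here. Dntt stood 10.2 to 54.5 times above the receptor genes, Cd24a 21.4 to 46.8 times, Cd69 35.7 to 140 times and Sox4 57.8 to 229 times, each above 100% of the receptor genes in every sample. The part of such background reads in the Rag1 and Arpp21 values was not tested. Exonic lengths here join the exons of all annotated transcripts of a gene, 17428 bases for Arpp21. They can exceed any single mRNA and so lower the density.

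**Figure D3:**
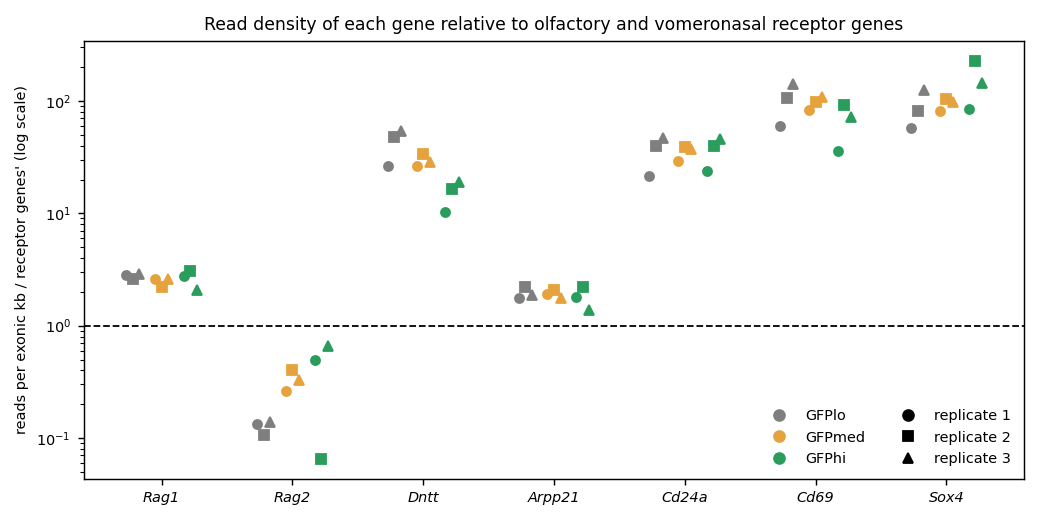
Reads per exonic kilobase of each gene divided by that of 1260 olfactory and vomeronasal receptor genes in the same sample (vertical axis, log scale); colors mark the groups, symbols the replicate number and the dashed line equal density. Rag2 lies below the line in all 9 samples, Rag1 and Arpp21 lie at 1.37 to 3.04, and the other 4 genes lie at 10.2 or more.

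Arpp21, at chr9:112065091-112235938 on the minus strand, had 2.62, 2.19 and 1.54 TPM in the GFPlo samples. The GFPmed samples had 2.25, 2.02 and 1.76 TPM, and the GFPhi samples 2.57, 1.58 and 1.17 TPM. As with Rag1, replicate 1 was the highest sample of each group and the groups overlapped. GFPhi differed from GFPlo by -0.18 on the log2 scale (95% interval -0.78 to 0.41, limma adjusted p = 0.86). An intron of Arpp21 hosts Mir128-2, and 580 of its exonic bases are shared with the noncoding gene 2900079G21Rik on the opposite strand.

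Cd24a, at chr10:43578284-43584265 on the plus strand, encodes the glycoprotein CD24, whose surface level falls as thymocytes mature. It stood at 91.2, 112 and 110 TPM in GFPlo, at 97.7, 108 and 106 TPM in GFPmed and at 95.9, 81.7 and 112 TPM in GFPhi. The groups overlapped, and GFPhi differed from GFPlo by -0.12 on the log2 scale with a 95% interval of -0.42 to 0.18 (limma adjusted p = 0.81). This interval lies inside the limit of 1 on either side, so a change of the size seen for Dntt was not within it.

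The deposited TPM were divided by the genomic span of the transcripts, so different genes were set side by side per exonic length instead. That length joins the exons of all annotated transcripts of a gene and can exceed any single mRNA. It was 6509 bases over 16 annotated exons for Cd69, 17428 over 291 for Arpp21 and 4795 over 1 for Sox4. The order between genes depends on these lengths and is not a measured order of mRNA levels. As mean reads per exonic kilobase and 1000000 reads, the order in GFPlo was Cd69 (60.3), Sox4 (52.5), Dntt (25.6), Cd24a (21.5), Rag1 (1.79), Arpp21 (1.24) and Rag2 (0.0817). Within that order the samples of Cd69 and Sox4 overlapped, as did those of Dntt and Cd24a and those of Rag1 and Arpp21. In GFPhi the order was Sox4 (80.4), Cd69 (35.0), Cd24a (20.1), Dntt (8.42), Rag1 (1.57), Arpp21 (1.06) and Rag2 (0.263). There Sox4, at 73.9 or more, lay above Cd69, at 37.4 or less, and Dntt, at 9.65 or less, lay below Cd24a, at 16.3 or more. GFPmed stood between, with Cd69 (58.6) and Sox4 (57.1) overlapping and Dntt (17.8) under Cd24a (21.2). Within each GFPlo library, Dntt lay above Cd24a and Cd69 above Sox4, in 3 of 3 samples. Within each GFPhi library both orders of these densities were turned, in 3 of 3 samples. Which gene of a pair lies on top rests on the exonic lengths used. The shift of a pair between groups does not, since each length is the same in every library.

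Of the other factors of V(D)J cleavage and end joining, few moved. Among the 13 tested genes of this list, Dntt was called lower in GFPhi than in GFPlo and Hmgb2 was called higher. The median log2 fold change was -0.07, against -0.0870 for all genes tested, of which 0.404% were called lower and 1.26% higher. Hmgb2, a DNA-bending protein that aids RAG binding and is also abundant in dividing cells, averaged 108 ± 22.5 TPM in GFPlo, 192 ± 14.3 in GFPmed and 347 ± 53.7 in GFPhi (log2 fold change 1.68, limma adjusted p = 0.0018). Dclre1c, which encodes the nuclease Artemis that opens hairpin ends, had a log2 fold change of -0.34 and was not called (limma adjusted p = 0.23). No gene of the list was called between GFPmed and GFPlo.

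Genes typical of DP thymocytes were lower in GFPhi more often than higher. The median log2 fold change against GFPlo was -0.43, and -0.0870 for all genes tested, of which 0.404% were called lower and 1.26% higher. Of the 14 tested genes of this list, 5 were called lower than in GFPlo and none higher. Besides Dntt, these were Ccr9, a chemokine receptor that guides immature thymocytes (-2.35), Satb1, a chromatin organizer that acts on the Rag locus (-1.37), the semaphorin receptor Plxnd1 (-1.26) and the coreceptor gene Cd8a (-1.12). Cd8b1, the other CD8 chain, had a log2 fold change of -0.79 with a limma adjusted p of 0.0065, short of the limit on the fold change, and Themis, a TCR signaling adaptor of positive selection, had -0.53 with a limma adjusted p of 0.086. The number called lower was 3 without GFPlo replicate 2, 3 without GFPhi replicate 3, 3 with median-of-ratios scaling and 2 without the 3 samples of replicate 1. Plxnd1, Cd8a or both lost their call without any 1 of the GFPlo samples and without GFPhi replicate 1 or 3. Rag1 and Arpp21 belong to this list and were not among the genes called.

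Genes of the DN and pre-TCR stage did not follow Dntt. Of 9 tested, Il2ra and Kit were called higher in GFPhi than in GFPlo and none was called lower. The median log2 fold change was -0.07, and 1.26% of all genes tested were called higher and 0.404% lower. Kit, the stem cell factor receptor, averaged 1.17 ± 0.733 TPM in GFPlo and 11.2 ± 3.24 TPM in GFPhi (log2 fold change 2.52, limma adjusted p = 0.0068). Il2ra, which encodes CD25, averaged 0.665 ± 0.0692 TPM in GFPlo and 9.73 ± 1.57 TPM in GFPhi (log2 fold change 2.68, limma adjusted p = 0.00049), in cells sorted as CD25-. Il2ra is also a marker of regulatory T cells. The summed TPM of their 3 markers Foxp3, Il2ra and Ikzf4 ran from 13.7 to 14.1 in GFPlo, 18.3 to 20.7 in GFPmed and 58.9 to 72.8 in GFPhi, and all 3 were called higher in GFPhi. Their part in the results above was not tested. Without the 3 samples of replicate 1, 1 gene of the DN list was called in place of 2, and Kit was the gene lost.

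Factors known to act on Rag transcription were called in both directions. Of 14 tested, Myb (1.98), Gfi1 (1.79) and Id3 were called higher in GFPhi than in GFPlo. Id2 (-2.65), Satb1 (-1.37) and Runx1 (-1.08) were called lower. The shares of all genes tested were 1.26% called higher and 0.404% called lower. MYB and FOXO1 are known activators of Rag genes, GFI1 is a known repressor, and ID2 and ID3 block the E proteins that bind E-boxes. Foxo1 had a log2 fold change of 0.90 (limma adjusted p = 0.0081) and Gata3 of -0.74 (limma adjusted p = 0.015), both short of the limit on the fold change. The median of the list was -0.08, near that of all genes, and Rag1 itself did not differ detectably.

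The family of Sox4 and genes next to the members gave few calls. Of 4 SOX genes tested, Sox13 was called lower in GFPhi, as were 0.404% of all genes tested. Sox13 went from 9.73 ± 1.13 to 1.99 ± 0.829 TPM (log2 fold change -1.88, limma adjusted p = 0.014). Its call was lost without GFPlo replicate 2, without GFPlo replicate 3 and without the 3 samples of replicate 1, where 0 of the 4 were called. Sox12, which like Sox4 belongs to the SOXC group, had a log2 fold change of 0.51 and was not called (limma adjusted p = 0.49). Sox13 is also a marker of γδ T cells. The summed TPM of Trdc, Sox13 and Zbtb16 ran from 22.1 to 26.9 in GFPlo and from 12.8 to 25.8 in GFPhi. Trdc itself had a log2 fold change of 0.07 and was not called (limma adjusted p = 0.96). Zbtb16 was too low to be tested, so Sox13 was the only marker of this sum that was called. The part of γδ T cells in the Sox13 difference was not tested. Of 10 tested neighbours and relatives of the members, none was called by limma on log2(TPM + 1). Prr5l, a neighbour of Rag1 that was low throughout, had a log2 fold change of 0.83 with a limma adjusted p of 0.044, short of the limit on the fold change, and it was called higher in GFPhi by limma-voom on whole reads with either scaling. Among the others, Clec2d, a lectin gene related to Cd69, had 0.81 (limma adjusted p = 0.38) and Mir128-2, within Arpp21, had 0.57 (limma adjusted p = 0.53). The Mir128-2 values rest on 5 to 23 reads per sample. They are not read as levels of the microRNA, since reads of the Arpp21 intron around it cannot be told apart from its own.

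Genes that SP thymocytes raise as they mature formed the counterpart. Of 13 tested, 7 were called higher in GFPhi than in GFPlo and 1, Il7r, lower, with a median log2 fold change of 1.22. Among all genes tested, 1.26% were called higher and 0.404% lower. S1pr1, the egress receptor that CD69 opposes, averaged 7.65 ± 1.57, 20.2 ± 2.93 and 222 ± 9.60 TPM from GFPlo over GFPmed to GFPhi (log2 fold change 4.70, limma adjusted p = 9.9e-06). Klf2, its transcriptional activator, rose by 2.60 on the log2 scale, S1pr4 by 2.31 and Ms4a4b by 2.17. H2-Q6 (1.35, limma adjusted p = 0.052) and Slfn2 (0.63, limma adjusted p = 0.0065) missed a threshold each. Between GFPmed and GFPlo, 2 genes of this list, S1pr1 and Klf2, were already called higher, in a comparison where Cd69 differed by -0.03.

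**Figure D4:**
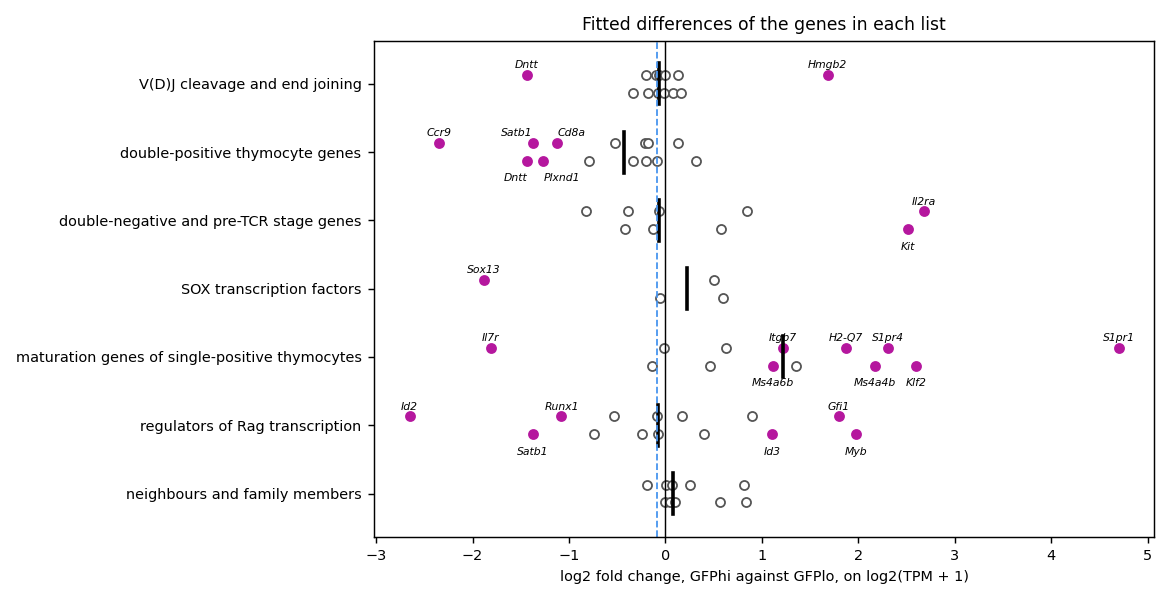
Log2 fold change of GFPhi against GFPlo (horizontal axis) for the tested genes of each list (rows); filled and named points were called, thick bars are the list medians and the dashed line is the median of all genes tested (-0.0870). The DP list lies to the left (median -0.43), the maturation list to the right (median 1.22), and the recombination list holds 1 called gene on each side.

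The genes whose 9 values ran most like those of each member were found by the root-mean-square distance between standardized log2(TPM + 1) values, among 17362 genes with a mean TPM of at least 5. For Dntt these were Runx1 (distance 0.103) and Cd226 (0.133), both called lower in GFPhi, at log2 fold changes of -1.08 and -1.36. For Cd69 they were Rsu1 (0.168) and Galnt6 (0.185), and for Sox4 they were Tbc1d10a (0.168) and Rasgrp4 (0.191). The nearest to Rag1 were the noncoding gene Gm20751 (0.204) and the pseudogene Gm6409 (0.230), to Arpp21 Bdkrb1 (0.245) and Gm42888 (0.252), and to Rag2 the pseudogene Gm17541 (0.313) and Gm25219 (0.343). Cd24a had no close neighbour, the nearest being 1110065P20Rik at 0.408 and Tmem128 at 0.424. All points of these distances come from the same 9 libraries.

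Across the series, total reads on genes ran from 7465552 to 14943774 per sample, with a median of 9426281, and 23486 to 29902 genes had a TPM of at least 1. Summed CD4 T cell markers ran from 8484 to 11135 TPM over all groups. B cell markers summed to 11.7 to 31.4 TPM and thymic epithelial markers to 3.86 to 13.2 TPM, of which Epcam was called higher in GFPhi (log2 fold change 1.38, limma adjusted p = 0.012). Myeloid markers summed to 117 to 153 TPM and Hbb-bs of red cells to 1.51 to 7.54 TPM. No gene of these marker lists that the table holds was at 0 in all samples.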

How the data were processed

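RNA of 9 sorted samples was made into cDNA with SMART-seq v4 and into libraries with Nextera XT. The authors aligned reads with STAR 2.7.11b to GRCm38, counted them per gene and deposited TPM of each sample, which divide by the genomic span of transcripts for 97% of protein-coding genes, not by exonic length. The authors also deposited group means of DESeq2 1.34.0 normalized counts (a signal), used here to solve whole reads for 41578 genes, while 400 were not solved (tolerance 0.02, 100% of values whole). The log2 fold changes, adjusted p-values and call scores that the authors deposited from their own DESeq2 comparisons were not used. No sample columns were left unused.

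TPM were analysed as log2(TPM + 1) with limma 3.58.1 in R 4.3.3, with 1 model over all groups, eBayes with trend and genes kept if their TPM reached 1 in 3 samples. limma-voom was run on the solved reads as an alternative. p-values measure the spread between 3 samples per group, which the labels call biological replicates; without molecular identifiers, read numbers understate the error. Gene positions and exons came from GENCODE M21 on GRCm38, promoters from RefSeq (GRCm38.p6). Tables were made with Python 3.11.15. Named genes were the members, Nr4a1, up to 4 called and 2 uncalled genes of each list by fold change, and the 2 nearest genes of each member, with uncalled genes taken at a mean TPM of 1 or more; Cd8a, Id3, Il7r, Runx1, Aqp11, Endou, Prr5l, Foxp3, Ikzf4 and Epcam were also named, after their values were seen. The members and gene lists were chosen with earlier results of these data known, and a few listed items are not reported here. The fit was tested on simulated data with known changes. The alternatives tried were no filter, a pseudocount of 0.1, a minimum TPM of 5, 2 scalings, a fit of 2 groups, eBayes without trend, the replicate number as a block, no limit on the fold change, limma-voom and each sample left out; limma-voom with the authors' size factors and leaving out the 3 samples of replicate 1 were chosen after seeing the data.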

Additional observations from a re-analysis of the deposited data

How the results depend on the processing

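The call of Dntt between GFPhi and GFPlo, 1 of the 6 tested genes, held under every alternative but leaving out the 3 samples of replicate 1, where 0 were called (chosen after seeing the data; 2 samples per group remain). With no limit on the fold change, 2 genes (Dntt and Cd69) passed in each of GFPhi against GFPlo and GFPhi against GFPmed, and 1 gene (Dntt) passed in GFPhi against GFPmed with a pseudocount of 0.1, limma-voom or limma-voom with the authors' size factors, against 0 in the main analysis. Leaving out each sample in turn gave 1 call in GFPhi against GFPlo and 0 in the other comparisons. Between GFPmed and GFPlo and in the test of uneven steps, 0 of the 6 genes were called under each alternative run. A fit of 2 groups and no limit on the fold change were run for pairs of groups only. In the main fit of these 2 tests, 1432 and 1542 of the 30693 genes tested had an unadjusted limma p under 0.05. Both counts are near the share of 0.05 expected if no gene changed, yet 18 and 6 genes were called in these tests. A count near that share does not show that no gene changed.

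Signs changed only for differences near 0, none of them called. With median-of-ratios scaling, Cd24a between GFPmed and GFPlo was 0.022 and Rag1 between GFPhi and GFPmed 0.0117; with quantile normalization the latter was 0.046; with limma-voom and the authors' size factors they were 0.017 and 0.0474. Without the 3 samples of replicate 1, Arpp21 between GFPmed and GFPlo was 0.0191 and Rag1 in the uneven steps -0.16. With each sample left out, Rag1 ran from -0.48 to 0.0203 (GFPhi against GFPlo), -0.31 to 0.055 (GFPmed against GFPlo), -0.31 to 0.16 (GFPhi against GFPmed) and -0.14 to 0.34 (uneven steps); Arpp21 from -0.18 to 0.0766 (GFPmed against GFPlo), -0.34 to 0.0141 (GFPhi against GFPmed) and -0.31 to 0.0525 (uneven steps); Cd24a from -0.10 to 0.0525 (GFPmed against GFPlo) and -0.22 to 0.0015 (uneven steps); and Cd69 from -0.13 to 0.0575 (GFPmed against GFPlo). The cause was not tested.

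After subtracting group means, samples with the same number had a mean correlation of 0.0609 (9 pairs, 0.0122 to 0.225) and the others of -0.0305. Of 9 samples, 6 correlated best with their own number. These correlations do not settle whether the numbers pair the samples, and the labels do not say whether same-numbered samples share a mouse. The main model was fitted without pairing. With the replicate number as a block, Dntt had a limma adjusted p of 0.016 between GFPhi and GFPlo and 0.084 between GFPhi and GFPmed, at log2 fold changes of -1.43 and -0.97; 1 gene was called in the first comparison and 0 in the others. Depth limits Rag2 most, at 1 to 17 reads per sample.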
